A study of Mus musculus with 9 samples.

Results

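The glycosyltransferase and sulfotransferase genes described here build, extend and cap the sugar chains that T cells carry on their surface proteins and lipids. Members were chosen by gene symbol alone, as the genes whose symbol begins with St3gal, St6gal, St8sia, Fut and a digit, B3gnt, B3galt, B4galt, Galnt and a digit, Mgat, Gcnt or Chst. The array carried 96 such genes among 20659 genes with a symbol, and 3 further genes of the reference with such a symbol, Galnt6os, St6gal2 and St8sia3os, were not analysed here. RNA came from CD4+ T cells that had been taken from BALB/c mice (spleen plus lymph nodes), in 3 sorted populations with 3 arrays each. Th17 cells were CD45RB low and carried captured IL-17A without interferon gamma. Th1 cells were CD45RB low and carried captured interferon gamma without IL-17A. Naive cells were CD45RB high. All 3 populations, naive cells included, had been stimulated for 3 h with PMA at 10 ng/ml and ionomycin at 500 ng/ml before the sort, so no population was at rest. The cell preparations behind the arrays are not described as separate animals or sorts, so that p-values speak only to the variation among these 9 samples, part or all of which may be technical.

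Mucin-type O-glycans start when a GalNAc transferase links GalNAc to serine or threonine, and branching, galactose, fucose, sialic acid and sulfate are then added one enzyme at a time in the Golgi. N-glycans are trimmed and then branched by the Mgat enzymes before the same capping enzymes finish them. In T cells the finished chains form ligands for selectins, galectins and siglecs. On core 2 O-glycans, which Gcnt1 branches, the selectin ligand sialyl Lewis x needs an alpha-2,3 sialic acid and a final fucose, which Fut7 can add.

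Each level below is the log2 intensity of the gene's brightest probe relative to that array's 75th percentile, so 0 stands for the 75th percentile. Levels of different genes come from different probes and are not set against each other. Changes are log2 fold changes ± SE from a limma fit of all 9 arrays. The threshold for a call was an adjusted p of 0.05 in a two-sided test, with Benjamini-Hochberg adjustment across 19133 tested genes. Of these, 13116 had a symbol, and the others were transcripts without one. Shares given below over all genes include both kinds. The scanner software marked between 53.4% and 58.3% of probes as well above background on each array, and no spot was saturated. The number of arrays limits the precision. Of the 96 members, 58 were well above background on at least 3 arrays and were tested, and 38 were not. Among the tested members 47 were above background on all 9 arrays, while Gcnt2 and St6galnac2 passed only through the Th17 arrays. The 3 naive arrays and Th1 replicate 1 shared a slide, Th1 replicates 2 and 3 shared another with Th17 replicates 1 and 2, and Th17 replicate 3 lay on a slide of its own. Naive and Th17 arrays shared no slide, so slide and population cannot be told apart directly in that comparison.

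The sorted cells carried the CD4 T cell markers. All 7 of 7 listed markers, Cd3e and Cd4 among them, were above background on every array. Of the B cell markers, Cd79b, Ms4a1, Blk and Pax5 were above background on no array. The summed linear level of the B cell list was 0.751 to 1.01 in Th17, 0.931 to 1.15 in Th1 and 0.371 to 0.516 in naive cells, with the 75th percentile of each array set to 1. The sum for the CD8 T cell list was 0.0545 to 0.0758 in Th17, 0.0639 to 0.0746 in Th1 and 0.573 to 0.685 in naive cells, with Cd8a above background on no array and Cd8b1 on all. The 5 measured monocyte markers summed to 20.1 to 30.8 in Th17, 25.8 to 31.8 in Th1 and 17 to 17.2 in naive cells. Lyz2 was above background on no Th1 or naive array. Csf1r, Itgam and Cd14 were above background on every array, and Adgre1 on every Th17 and naive array and 2 of 3 Th1 arrays. Summed levels in Th17, Th1 and naive cells were 180 to 215, 177 to 201 and 162 to 169 for the dendritic cell list. Siglech, at log2 levels of 7.33 to 7.75, made up most of that sum. Zbtb46 was above background on every array, Xcr1 on the Th1 arrays alone, Itgax on 1 naive array and Flt3 on none. Sums for the plasma cell list were 112 to 126, 125 to 140 and 138 to 156. Most of that was Irf4, at log2 levels of 6.77 to 7.27, and Mzb1 was above background on no array. The neutrophil sums were 1.51 to 3.46, 1.53 to 2.68 and 1.77 to 1.87. NK cell sums were 0.0867 to 0.103, 0.252 to 0.525 and 0.644 to 1. The part of other cell types in the results below was not tested. In sorted bulk RNA, fewer cells that express a gene and less RNA of it per cell cannot be told apart.

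In Th1 against naive cells, 14 of the 58 tested members were higher (24.1%) and 20 were lower (34.5%). Across all genes tested 23.5% were called higher and 30.4% lower, so the members were called at about the background rate in that comparison. At a change of at least 2-fold, 12 of the 58 members were higher and 13 lower, against 11.6% and 9.09% of all genes. In Th17 against naive cells, 17 members were higher (29.3%) and 24 lower (41.4%), with backgrounds of 24.4% and 29.7%. At 2-fold or more these were 10 of 58 higher and 13 of 58 lower, with backgrounds of 11.9% and 10.3%. In Th17 against Th1 cells, 9 members were higher (15.5%) and 10 lower (17.2%), with backgrounds of 8.26% and 7.51%. There, 5 of 58 rose and 6 of 58 fell by at least 2-fold, with backgrounds of 3.08% and 3.32%. Both member shares in Th17 against Th1 cells thus lay above the backgrounds, and no test of the members as a set was run. The higher counts of Th17 cells include Gcnt2 and St6galnac2, whose way into the fit made them higher there. Gcnt1, Galnt3 and Fut10 were above background on all 6 Th arrays and on no naive array. They entered the fit only through populations where they are higher, and they are in both higher counts against naive cells. St6galnac4 is in the higher count of Th1 against naive cells, though its brighter and dimmer probes passed in opposite directions. The counts of families and gene lists below are descriptions, to be read against these backgrounds. The median absolute log2 change of the tested members was 0.94 in both comparisons with naive cells and 0.37 in Th17 against Th1 cells, and over all genes tested it was 0.50 for Th1 against naive cells, 0.51 for Th17 against naive cells and 0.24 for Th17 against Th1 cells. Comparisons with naive cells share the naive arrays, so they are not independent of each other. Of all genes called, 43.6% were higher in Th1 against naive cells and 52.4% in Th17 against Th1 cells, and these shares were 55.1% and 41.6% when each array was scaled by the probes above background on all arrays. That scaling moved the median of all genes in Th1 against naive cells to 0.06, against -0.09 as reported.

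**Figure D1:**
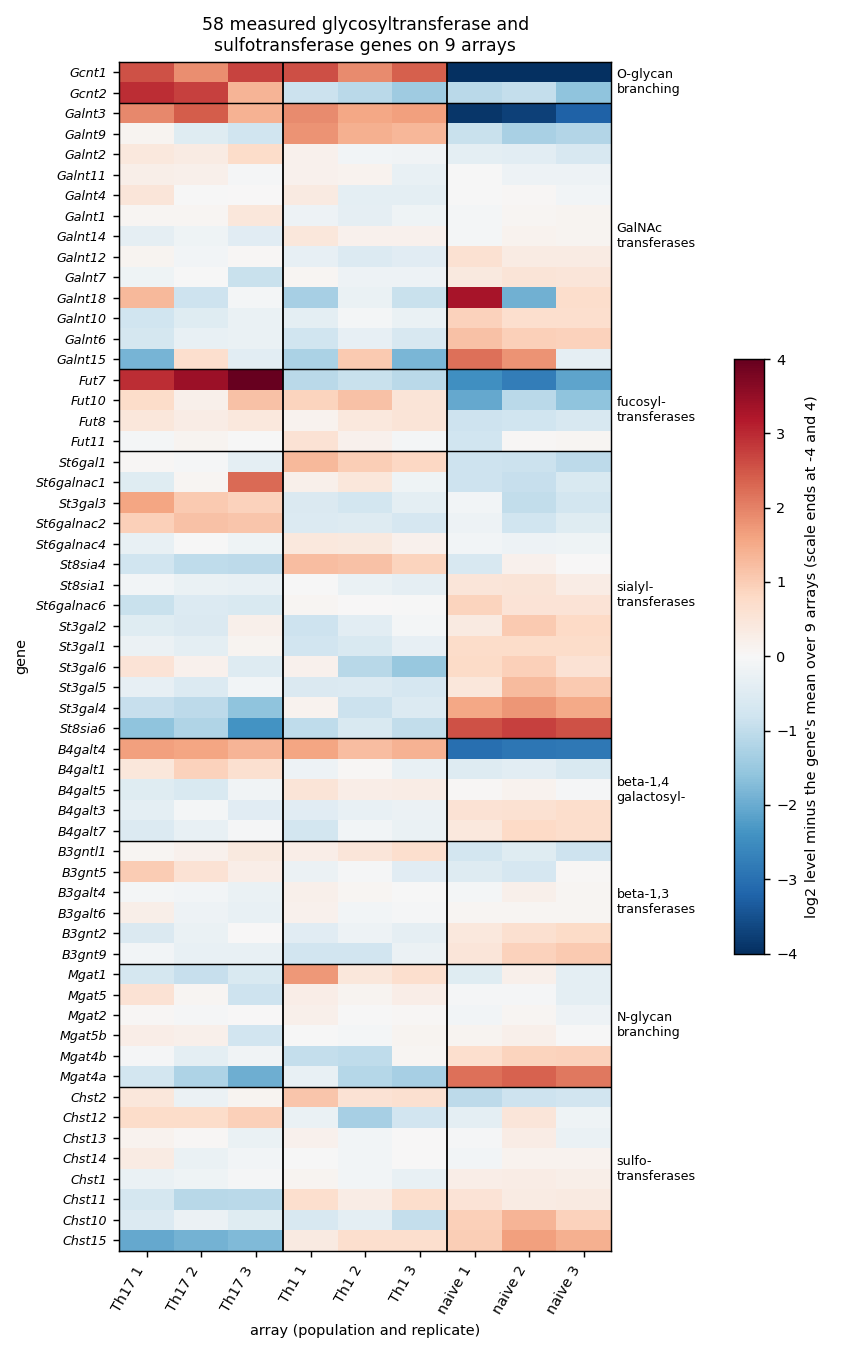
Colour shows the log2 level of each of the 58 tested members on each of the 9 arrays (columns, 3 per population) minus the gene's mean over the arrays, with genes in rows by enzyme family. Gcnt1, Galnt3 and B4galt4 are blue on the 3 naive arrays, Fut7 is red on the 3 Th17 arrays alone, and St8sia6 and Mgat4a are red on the naive arrays.

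Of the 5 enzymes that branch O-glycans, 2 were tested. Gcnt1, the core 2 enzyme, had levels of 1.05, 0.35 and 1.20 in Th17 cells, 1.06, 0.37 and 0.89 in Th1 cells and -5.55, -7.17 and -5.80 in naive cells. All 6 Th arrays lay far above the 3 naive arrays, none of which was well above background. Since Gcnt1 entered the fit only through its Th arrays, no p is given against naive cells. Gcnt1 was at least 64.7-fold higher in Th17 than in naive cells and at least 60.7-fold higher in Th1 cells than in naive ones. These bounds set the mean of the brighter group against the lowest signal above background on each array of the dimmer group, or against the probe's own signal where that is higher. Between Th17 and Th1 cells the difference was 0.09 ± 0.43 (adjusted p = 0.908). The second Gcnt1 probe gave bounds of at least 16.0-fold in Th17 against naive cells and at least 11.2-fold in Th1 against naive cells.

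Gcnt2, which makes the branched I antigen on lactosamine chains, was above background in Th17 cells alone. It stood at -3.07, -3.29 and -4.66 in Th17 cells, -6.88, -7.11 and -7.44 in Th1 cells and -7.09, -6.98 and -7.62 in naive cells. The Th17 arrays did not overlap the others. Gcnt2 was at least 2.78-fold higher in Th17 than in naive cells and at least 2.67-fold higher in Th17 than in Th1 cells. It entered the fit only through its Th17 arrays, so no p is given. No fold is given for Th1 against naive cells, since both lay below background. Gcnt3 was above background on 1 array, and Gcnt4 and Gcnt7 on none.

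Among the GalNAc transferases, which start O-glycans, 13 of 17 were tested. In Th1 against naive cells 3 rose and 3 fell (23.1% each, against 23.5% and 30.4% of all genes). In Th17 against naive cells 3 rose and 5 fell (23.1% and 38.5%, against 24.4% and 29.7%). In Th17 against Th1 cells 2 rose and 2 fell (15.4% each, against 8.26% and 7.51%). Galnt3 had levels of -1.38, -0.88 and -1.90 in Th17 cells, -1.40, -1.73 and -1.64 in Th1 cells and -7.17, -7.02 and -6.52 in naive cells. Its naive arrays were all below background and its Th17 and Th1 arrays overlapped. Galnt3 was at least 13.6-fold higher in Th17 than in naive cells and at least 11.8-fold higher in Th1 cells than in naive ones. Its entry to the fit was through Th arrays alone, so no p is given. Galnt9 followed another order. It stood at -2.73, -3.33 and -3.62 in Th17 cells, -1.03, -1.41 and -1.51 in Th1 cells and -3.74, -4.14 and -4.0 in naive cells. Th1 arrays were highest without overlap. Galnt9 rose by 2.64 ± 0.24 in Th1 against naive cells (adjusted p = 4.82e-05) and fell by 1.91 in Th17 against Th1 cells (adjusted p = 0.0012). The Galnt9 difference of 0.73 for Th17 against naive (adjusted p = 0.0293) was lost without Th17 replicate 1, where it was 0.48, without Th17 replicate 2, or without naive replicate 2 or 3 (adjusted p 0.0507 to 0.0925), and with normexp and capped backgrounds (0.32, adjusted p = 0.0564).

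Galnt6 and Galnt10 were lower in both Th populations. Galnt6 had levels of 0.98, 1.40 and 1.43 in Th17 cells, 0.89, 1.35 and 1.05 in Th1 cells and 2.85, 2.64 and 2.61 in naive cells. Its naive arrays lay above all others, with changes of -1.43 ± 0.17 in Th17 against naive cells (adjusted p = 0.000181) and -1.60 ± 0.17 in Th1 against naive cells (adjusted p = 0.000105). Galnt10 changed by -1.28 and -1.0 in Th17 and Th1 against naive cells (adjusted p = 0.000224 and 0.000878). Galnt2 rose by 0.98 in Th17 against naive cells and Galnt7 fell by 0.83 in the same comparison. Galnt1, Galnt4 and Galnt11, which were above background on all arrays, passed the test in no comparison.

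Galactose is added to GlcNAc by several of the B4galt enzymes, a family of which 5 of 7 were tested. B4galt4 had levels of 1.18, 1.11 and 0.90 in Th17 cells, 1.12, 0.78 and 0.95 in Th1 cells and -3.46, -3.36 and -3.31 in naive cells. The 6 Th arrays lay close together and far above the 3 naive arrays. B4galt4 rose by 4.44 ± 0.12 in Th17 against naive cells (adjusted p = 2.24e-07) and by 4.33 ± 0.12 in Th1 against naive cells (adjusted p = 1.59e-07). Its dimmer probe was above background on all 6 Th arrays and on 1 of 3 naive arrays. B4galt1, the main galactosyltransferase of N- and O-glycans, stood at 4.84, 5.32 and 5.03 in Th17 cells, 4.19, 4.45 and 4.12 in Th1 cells and 3.88, 3.98 and 3.79 in naive cells. The 3 populations did not overlap. Its change was 1.18 ± 0.15 in Th17 against naive cells (adjusted p = 0.000261), 0.81 ± 0.15 in Th17 against Th1 cells (adjusted p = 0.00785) and 0.37 ± 0.15 in Th1 against naive cells (adjusted p = 0.0634). With slide as a block the Th17 against Th1 difference was 0.80 (adjusted p = 0.0527) and within the slide that held both it was the same size (adjusted p = 0.13), so that call was lost. The Th1 against naive difference was called by the dimmer probe, at 0.58 (adjusted p = 0.038).

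B4galt3 and B4galt7 fell in both Th populations. B4galt3, which acts on N-glycans, changed by -0.95 in Th17 and -0.96 in Th1 against naive cells. B4galt7, which builds the linker of proteoglycan chains, changed by -0.93 and -1.01 in the same comparisons. B4galt5, a lactosylceramide synthase, changed by -0.77 ± 0.14 in Th17 against Th1 cells (adjusted p = 0.00781).

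Promoter sequences are printed for the genes with the largest rises. The RefSeq table of GRCm38.p6 gives windows of 300 bases, from 250 before to 50 after each listed start, for 73 of the 96 members. Of several windows the one listed first is shown (of 3 for Gcnt1 and 2 for Fut7). Which start these cells used was not measured. Capitals mark the GC box, GGGCGG, on either strand.
Gcnt1, chr19:17372795-17373094, minus strand: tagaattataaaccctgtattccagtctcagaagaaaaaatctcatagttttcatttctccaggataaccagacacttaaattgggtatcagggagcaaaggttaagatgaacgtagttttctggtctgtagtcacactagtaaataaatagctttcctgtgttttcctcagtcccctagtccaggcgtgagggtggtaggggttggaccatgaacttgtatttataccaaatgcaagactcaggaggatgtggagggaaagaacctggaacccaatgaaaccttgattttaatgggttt
Galnt3, chr2:66124744-66125043, minus strand: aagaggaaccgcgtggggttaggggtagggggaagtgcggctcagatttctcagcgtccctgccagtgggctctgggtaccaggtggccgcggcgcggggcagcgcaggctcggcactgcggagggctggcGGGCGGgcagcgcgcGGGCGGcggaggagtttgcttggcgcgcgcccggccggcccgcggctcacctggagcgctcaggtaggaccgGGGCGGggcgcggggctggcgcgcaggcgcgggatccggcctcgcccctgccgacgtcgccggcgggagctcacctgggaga
B4galt4, chr16:38742009-38742308, plus strand: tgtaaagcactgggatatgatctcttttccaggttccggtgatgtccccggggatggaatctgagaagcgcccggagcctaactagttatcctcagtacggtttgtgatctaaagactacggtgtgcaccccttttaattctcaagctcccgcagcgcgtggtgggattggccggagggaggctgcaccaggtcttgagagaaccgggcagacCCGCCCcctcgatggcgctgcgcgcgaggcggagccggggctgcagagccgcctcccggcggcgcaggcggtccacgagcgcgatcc
Fut7, chr2:25422992-25423291, plus strand: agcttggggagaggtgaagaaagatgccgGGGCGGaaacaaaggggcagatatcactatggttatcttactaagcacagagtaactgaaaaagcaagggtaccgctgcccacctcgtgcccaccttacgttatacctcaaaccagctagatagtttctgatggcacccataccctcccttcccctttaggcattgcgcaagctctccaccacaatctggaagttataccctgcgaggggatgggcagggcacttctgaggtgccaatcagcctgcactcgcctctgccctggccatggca
Short motifs were searched on both strands of every window. The GC box was in 57.0% of the 100 windows of members and in 35.7% of all 32851 windows. The T-box motif GGTGTGA was in 2% and 3.98%, the STAT motif TTCNNNGAA in 6% and 8.30%, the ROR motif AGGTCA in 6% and 16.3%, the AP-1 motif TGANTCA in 8% and 7.81% and the ETS motif CCGGAAG in 4% and 8.86%, with the members given first each time. In the 4 windows printed, the GC box was found 3 times in Galnt3, 1 time each in B4galt4 and Fut7 and not in Gcnt1, and none of the other motifs was found. A match only describes the letters of the window.

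**Figure D2:**
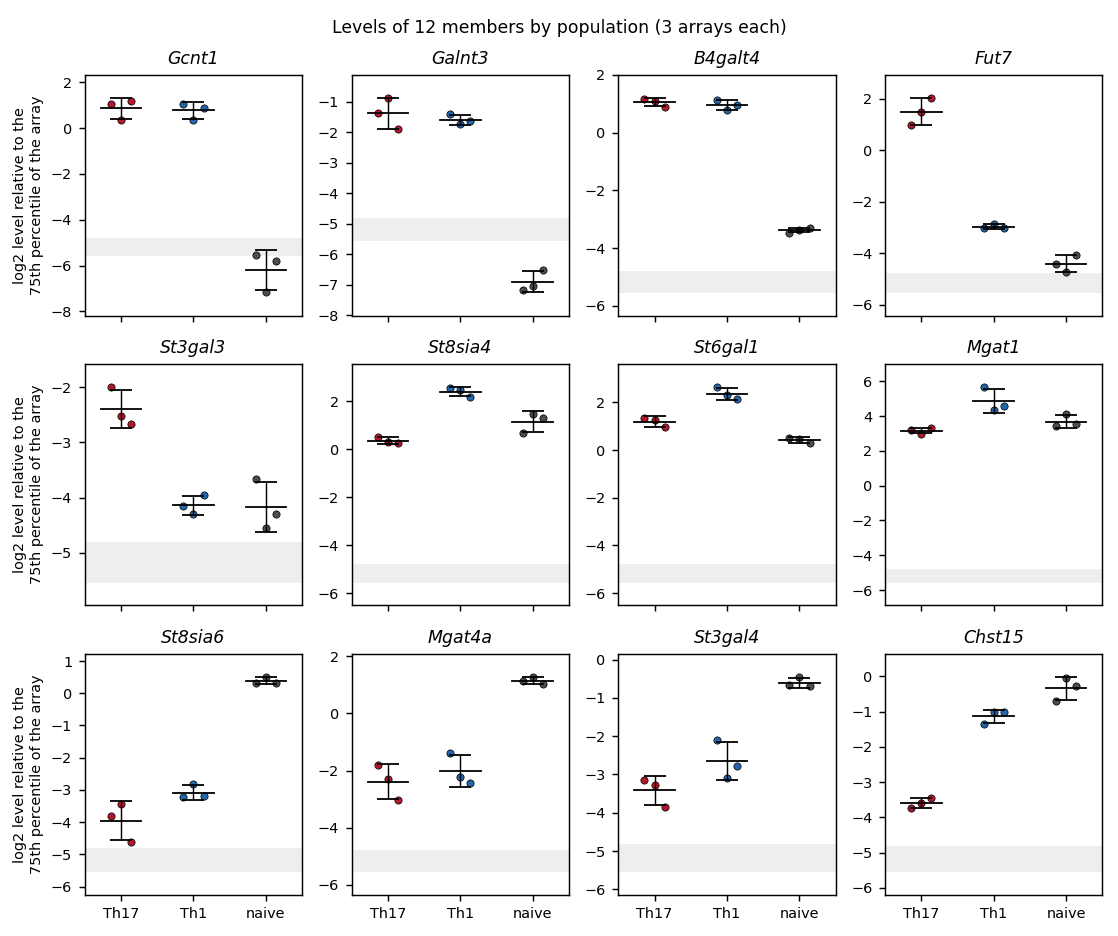
Points are the log2 levels of 12 members on single arrays, by population (Th17, Th1, naive), with the mean (line) and SD (bar) of 3 arrays. The grey band spans the lowest level above background on the 9 arrays. Gcnt1 and Galnt3 lie below the band's upper edge in naive cells, and Fut7 lies highest in Th17 cells.

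The tested fucosyltransferases rose or did not pass the test. Of 9 on the array 4 were tested, and 3 rose in each comparison with naive cells. The shares of all genes called higher were 23.5% for Th1 and 24.4% for Th17 cells. Those 3 include Fut10, which entered the fit only through its Th arrays. Fut7, the leukocyte enzyme that finishes sialyl Lewis x, had levels of 0.97, 1.46 and 2.02 in Th17 cells, -3.05, -2.87 and -3.03 in Th1 cells and -4.41, -4.75 and -4.07 in naive cells. The Th17 arrays stood far above the rest, and the populations did not overlap. Fut7 rose by 5.90 ± 0.27 in Th17 against naive cells (adjusted p = 1.60e-06) and by 4.47 ± 0.27 in Th17 against Th1 cells (adjusted p = 2.63e-05). In Th1 against naive cells it rose by 1.43 ± 0.27 (adjusted p = 0.00226). The dimmer Fut7 probe did not show the Th1 rise. It was below background on all Th1 and naive arrays, and was at least 10.6-fold higher in Th17 than in naive cells and at least 10.2-fold higher in Th17 than in Th1 cells.

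Fut8, which puts core fucose on N-glycans, had levels of -0.94, -1.11 and -0.99 in Th17 cells, -1.26, -0.97 and -0.90 in Th1 cells and -2.24, -2.20 and -2.04 in naive cells. Both Th populations lay above the naive arrays. It rose by 1.15 ± 0.12 in Th17 (adjusted p = 0.000102) and by 1.11 ± 0.12 in Th1 against naive cells (adjusted p = 0.00013). Fut10 was at least 3.46-fold higher in Th17 and at least 3.83-fold higher in Th1 cells than in naive ones, with its naive arrays below background. That probe entered the fit only through its Th arrays, so no p is given. A dimmer Fut10 probe gave 1.16 ± 0.55 and 0.61 ± 0.55 in these comparisons and passed in neither (adjusted p = 0.11 and 0.39). Fut11 passed in no comparison. Fut4, the other enzyme of sialyl Lewis x in leukocytes, was above background on no array.

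Sialyltransferases were the largest family, with 14 of 19 tested. In each comparison with naive cells 3 rose and 8 fell (21.4% and 57.1%). The shares of all genes were 23.5% and 30.4% for Th1 and 24.4% and 29.7% for Th17 cells. In Th17 against Th1 cells 2 rose and 4 fell (14.3% and 28.6%, against 8.26% and 7.51% of all genes). The rises in Th1 cells include St6galnac4, whose probes passed in opposite directions. Those in Th17 cells include St6galnac2, which entered the fit only through its Th17 arrays. The enzymes that add alpha-2,3 sialic acid mostly fell. St3gal4, which sialylates lactosamine and serves selectin ligands, had levels of -3.14, -3.27 and -3.84 in Th17 cells, -2.09, -3.08 and -2.78 in Th1 cells and -0.67, -0.45 and -0.69 in naive cells. Naive arrays lay above all others. Its changes were -2.81 ± 0.27 in Th17 (adjusted p = 6.10e-05) and -2.05 ± 0.27 in Th1 against naive cells (adjusted p = 0.000371). St3gal1, which caps core 1 O-glycans, changed by -0.91 ± 0.16 and -1.30 ± 0.16 in the same comparisons (adjusted p = 0.00149 and 0.000231). Its levels were 3.75, 3.59 and 4.10 in Th17 cells, 3.22, 3.39 and 3.65 in Th1 cells and 4.71, 4.72 and 4.73 in naive cells. St3gal5, the GM3 ganglioside synthase, changed by -1.26 and -1.53, and St3gal2 by -1.02 and -1.18, in Th17 and Th1 against naive cells. The St3gal2 call in Th17 cells was lost without Th17 replicate 2 or naive replicate 2 (adjusted p 0.0501 to 0.053).

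St3gal3 did not follow that pattern, and the fall of St3gal6 in Th1 cells was smaller and not called with slide as a block. St3gal6, another enzyme of selectin ligands, had levels of 0.02, -0.35 and -1.04 in Th17 cells, -0.36, -1.64 and -2.04 in Th1 cells and 0.23, 0.42 and 0.05 in naive cells. Th1 replicate 1, on the slide of the naive arrays, lay nearer to them than the other Th1 arrays did. St3gal6 changed by -1.58 ± 0.43 in Th1 against naive cells (adjusted p = 0.014), but by -0.59 with slide as a block (adjusted p = 0.0983) and within that slide (adjusted p = 0.0828). In Th17 against naive cells St3gal6 changed by -0.69 ± 0.43 (adjusted p = 0.2065). Its Th17 against Th1 difference was 0.89 ± 0.43 (adjusted p = 0.203), and 1.68 with slide as a block (adjusted p = 0.00537). St3gal3 stood at -2.0, -2.51 and -2.66 in Th17 cells, -4.16, -4.31 and -3.96 in Th1 cells and -3.67, -4.55 and -4.30 in naive cells. Its Th17 arrays lay above the rest, and Th1 and naive arrays overlapped. St3gal3 rose by 1.78 ± 0.25 in Th17 against naive cells (adjusted p = 0.000496) and by 1.75 ± 0.25 in Th17 against Th1 cells (adjusted p = 0.00257).

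The alpha-2,6 enzyme St6gal1, which caps N-glycans and makes the ligand of the siglec CD22, had levels of 1.36, 1.27 and 0.94 in Th17 cells, 2.63, 2.30 and 2.15 in Th1 cells and 0.50, 0.45 and 0.28 in naive cells. The 3 populations were separate, with Th1 highest. St6gal1 rose by 1.94 ± 0.16 in Th1 (adjusted p = 3.00e-05) and by 0.78 ± 0.16 in Th17 against naive cells (adjusted p = 0.00352), and changed by -1.16 ± 0.16 in Th17 against Th1 cells (adjusted p = 0.00201). St6galnac6, which sialylates gangliosides, changed by -1.34 ± 0.13 in Th17 against naive cells (adjusted p = 7.03e-05). Its -0.64 in Th1 against naive and -0.70 in Th17 against Th1 cells were lost with slide as a block (adjusted p = 0.0612 and 0.0508). St6galnac2 was above background in Th17 cells alone, where it was at least 1.22-fold higher than in naive cells and at least 1.17-fold higher than in Th1 cells. It too entered the fit only through its Th17 arrays, and no p is given.

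Among alpha-2,8 enzymes, St8sia6, which acts on O-glycans, had levels of -3.83, -3.43 and -4.61 in Th17 cells, -3.24, -2.82 and -3.20 in Th1 cells and 0.32, 0.51 and 0.32 in naive cells. The naive arrays lay far above all others. It changed by -4.34 ± 0.27 in Th17 (adjusted p = 7.07e-06) and by -3.47 ± 0.27 in Th1 against naive cells (adjusted p = 2.31e-05), and these were the largest falls among the tested members. St8sia4, which makes polysialic acid, moved in opposite directions. Its levels were 0.52, 0.31 and 0.28 in Th17 cells, 2.54, 2.47 and 2.20 in Th1 cells and 0.66, 1.49 and 1.33 in naive cells. The Th1 arrays lay highest and the Th17 arrays lowest, without overlap. St8sia4 rose by 1.25 ± 0.21 in Th1 against naive cells (adjusted p = 0.0014), changed by -0.79 ± 0.21 in Th17 against naive cells (adjusted p = 0.0128) and by -2.04 ± 0.21 in Th17 against Th1 cells (adjusted p = 0.000476). Within the slide that held naive arrays and 1 Th1 array, its Th1 rise was 1.39 (adjusted p = 0.0522). St8sia1, the GD3 synthase, changed by -0.67 and -0.64 in Th17 and Th1 against naive cells. Within the slide of the naive arrays its Th1 difference was -0.45 (adjusted p = 0.0911).

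Of the enzymes that branch N-glycans, 6 of 11 were tested, and Mgat3, which adds the bisecting GlcNAc, was above background on no array. Mgat4a, which opens the beta-1,4 branch, had levels of -1.81, -2.31 and -3.04 in Th17 cells, -1.37, -2.22 and -2.42 in Th1 cells and 1.14, 1.28 and 1.04 in naive cells. Naive arrays were highest without overlap. Its changes were -3.54 ± 0.35 in Th17 (adjusted p = 7.02e-05) and -3.16 ± 0.35 in Th1 against naive cells (adjusted p = 0.00014). Its isoenzyme Mgat4b changed by -1.02 ± 0.27 and -1.47 ± 0.27 in the same comparisons (adjusted p = 0.0127 and 0.00225), and was above background on 1 of 3 Th1 arrays.

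Mgat1, which starts complex N-glycans, was highest in Th1 cells. It had levels of 3.20, 2.99 and 3.30 in Th17 cells, 5.65, 4.36 and 4.59 in Th1 cells and 3.42, 4.11 and 3.52 in naive cells. Th1 replicate 1 stood above the other Th1 arrays. Mgat1 changed by -1.70 ± 0.33 in Th17 against Th1 cells (adjusted p = 0.0105) and by 1.18 ± 0.33 in Th1 against naive cells (adjusted p = 0.016). That second call was lost without naive replicate 1 (1.05) or naive replicate 3 (1.10; adjusted p 0.0517 to 0.0532). With slide as a block the change was 1.97, which rests on Th1 replicate 1, the only Th1 array on the slide of the naive arrays. Without that array the change was 0.79. Mgat2 and Mgat5, which add the next branches, passed in no comparison. Their changes were 0.09 ± 0.11 and 0.09 ± 0.31 in Th17 against naive cells and 0.15 ± 0.11 and 0.37 ± 0.31 in Th1 against naive cells.

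Lactosamine chains are extended by some of the beta-1,3 transferases, a family of which 6 of 14 were tested. B3gnt2, the main polylactosamine enzyme, had levels of 2.86, 3.17 and 3.44 in Th17 cells, 2.99, 3.22 and 3.08 in Th1 cells and 3.87, 4.07 and 4.19 in naive cells. Both Th populations lay below the naive arrays. It changed by -0.88 ± 0.16 in Th17 (adjusted p = 0.00193) and by -0.94 ± 0.16 in Th1 against naive cells (adjusted p = 0.00139). B3gnt9 changed by -1.04 ± 0.19 and -1.40 ± 0.19 in the same comparisons (adjusted p = 0.00197 and 0.000434), and B3gntl1 by 0.89 and 1.16. B3gnt5, which starts the lacto-series glycolipids, rose by 1.0 ± 0.25 in Th17 against naive cells (adjusted p = 0.00881), though not with normexp and capped backgrounds (0.28, adjusted p = 0.0787). Its 0.87 in Th17 against Th1 cells (adjusted p = 0.0474) did not survive leaving out 1 of the 3 Th1 arrays, Th17 replicate 1 or Th17 replicate 2 (adjusted p 0.0782 to 0.13). B3gnt3, which extends core 1 chains for selectin ligands, was above background on no array.

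Sulfotransferases numbered 14, with 8 tested. Chst15, which adds the 6-O sulfate of chondroitin sulfate E, had levels of -3.73, -3.59 and -3.44 in Th17 cells, -1.34, -1.02 and -1.02 in Th1 cells and -0.70, -0.06 and -0.27 in naive cells. The populations were separate, with Th17 lowest. Chst15 changed by -3.25 ± 0.18 in Th17 against naive cells (adjusted p = 3.67e-06) and by -2.46 ± 0.18 in Th17 against Th1 cells (adjusted p = 7.55e-05). Its -0.79 in Th1 against naive cells (adjusted p = 0.00611) was lost within the slide that held both (-1.0, adjusted p = 0.0621). A dimmer probe was below background on all Th17 arrays and was at least 5.78-fold lower in Th17 than in naive cells.

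Chst11, a chondroitin 4-O-sulfotransferase, was lower in Th17 cells. It stood at -1.54, -1.96 and -1.93 in Th17 cells, -0.19, -0.57 and -0.16 in Th1 cells and -0.29, -0.53 and -0.50 in naive cells. The Th1 and naive arrays overlapped. Chst11 changed by -1.37 ± 0.16 in Th17 against naive (adjusted p = 0.000187) and by -1.51 ± 0.16 in Th17 against Th1 cells (adjusted p = 0.000544). Its homologue Chst12 rose by 1.60 ± 0.29 in Th17 against Th1 cells (adjusted p = 0.00805). The 0.84 of Chst12 for Th17 against naive (adjusted p = 0.0387) was lost without any single Th17 array or without naive replicate 1 or 3 (adjusted p 0.0698 to 0.12). Chst10, the HNK-1 sulfotransferase, changed by -1.51 ± 0.18 in Th17 (adjusted p = 0.000203) and by -1.75 ± 0.18 in Th1 against naive cells (adjusted p = 9.83e-05).

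Chst2, which sulfates GlcNAc in selectin ligands, had levels of 2.87, 2.17 and 2.52 in Th17 cells, 3.51, 3.00 and 3.07 in Th1 cells and 1.36, 1.58 and 1.64 in naive cells. Both Th populations lay above naive cells. Chst2 rose by 0.99 ± 0.20 in Th17 (adjusted p = 0.00365) and by 1.67 ± 0.20 in Th1 against naive cells (adjusted p = 0.000255). Its -0.68 ± 0.20 in Th17 against Th1 cells missed the threshold (adjusted p = 0.0588), but passed without Th17 replicate 1 (adjusted p = 0.0318) and with quantile normalization (-0.73, adjusted p = 0.0338). Chst4, its partner in high endothelial cells, was above background on no array.

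**Figure D3:**
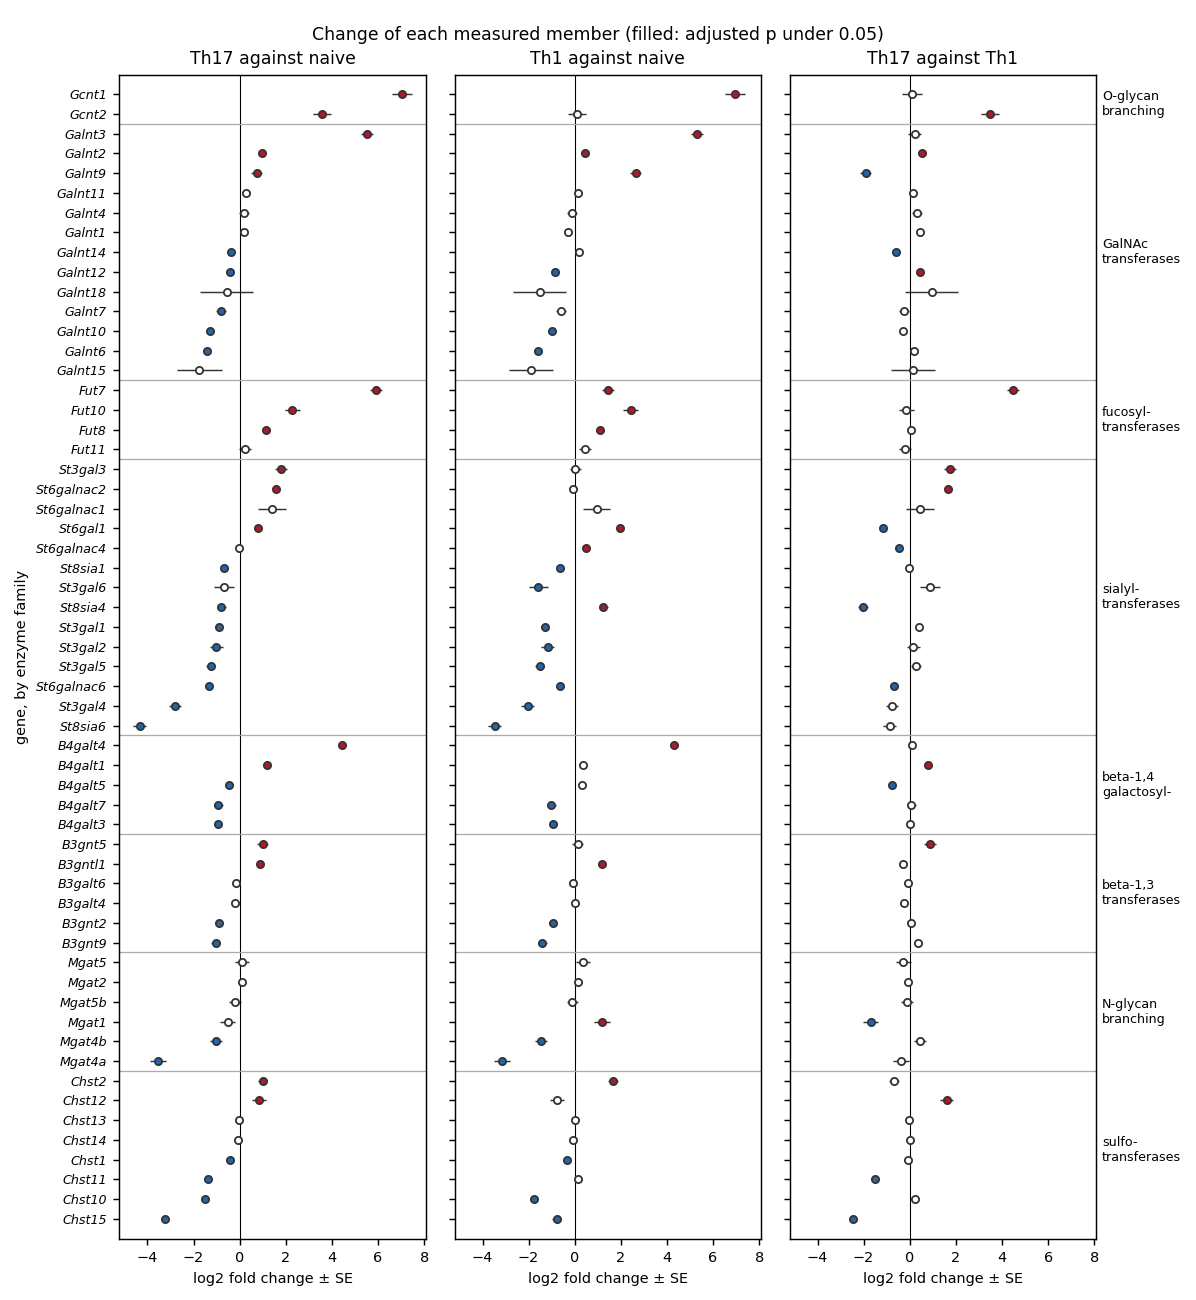
Each point is the log2 fold change ± SE of 1 tested member, by enzyme family in rows, for Th17 against naive, Th1 against naive and Th17 against Th1 cells in 3 panels on 1 scale. Filled points have an adjusted p under 0.05 (red higher, blue lower). Values of genes below background in a group, such as Gcnt2, are fitted values and not measured folds. Fut7 lies farthest right in the panel of Th17 against Th1 cells, and Chst15 and St8sia4 farthest left.

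Probes of 1 gene were compared for the 18 members with more than 1 tested probe. They gave the same call in 13 members for Th1 against naive, 13 for Th17 against naive and 18 for Th17 against Th1 cells. In 1 member the probes passed in opposite directions. The brighter probe of St6galnac4, which sialylates core 1 O-glycans, had levels of 2.26, 2.53 and 2.39 in Th17 cells, 2.97, 2.95 and 2.72 in Th1 cells and 2.45, 2.37 and 2.39 in naive cells. The dimmer probe had 1.53, 1.48 and 1.41 in Th17 cells, 1.88, 1.70 and 1.94 in Th1 cells and 2.49, 2.58 and 2.41 in naive cells. In Th1 against naive cells the brighter probe gave 0.48 ± 0.11 (adjusted p = 0.00718) and the dimmer -0.65 ± 0.10 (adjusted p = 0.00082), so no direction is given for this gene. Both probes were lower in Th17 than in Th1 cells, at -0.49 and -0.36, a call of the brighter probe that was lost without Th17 replicate 1 or Th1 replicate 1 or 2 (adjusted p 0.0661 to 0.0813) and with slide as a block (-0.44, adjusted p = 0.107).

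The probes of Galnt14 also differed. Its brighter probe had levels of -4.82, -4.64 and -4.92 in Th17 cells, -4.02, -4.31 and -4.30 in Th1 cells and -4.54, -4.32 and -4.35 in naive cells. The dimmer probe had -6.23, -5.71 and -6.39 in Th17 cells, -2.70, -2.55 and -2.71 in Th1 cells and -6.01, -6.32 and -6.43 in naive cells. The dimmer probe was above background on the 3 Th1 arrays alone. It was at least 5.65-fold higher in Th1 cells than in naive ones and at least 6.86-fold lower in Th17 than in Th1 cells, with no p given, since it was kept only through those Th1 arrays. The brighter probe gave 0.19 ± 0.13 in Th1 against naive (adjusted p = 0.233) and -0.58 ± 0.13 in Th17 against Th1 cells (adjusted p = 0.0164). The second of these was lost with slide as a block (-0.42, adjusted p = 0.0849), within the shared slide (adjusted p = 0.141) and with normexp and capped backgrounds (-0.0059, adjusted p = 0.981). For St6galnac1, the brighter probe read 0.80, 1.36 and 3.54 in Th17 cells, while the dimmer one read -4.02, -3.96 and -4.03 there, so the high value of Th17 replicate 3 was in 1 probe only.

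**Figure D4:**
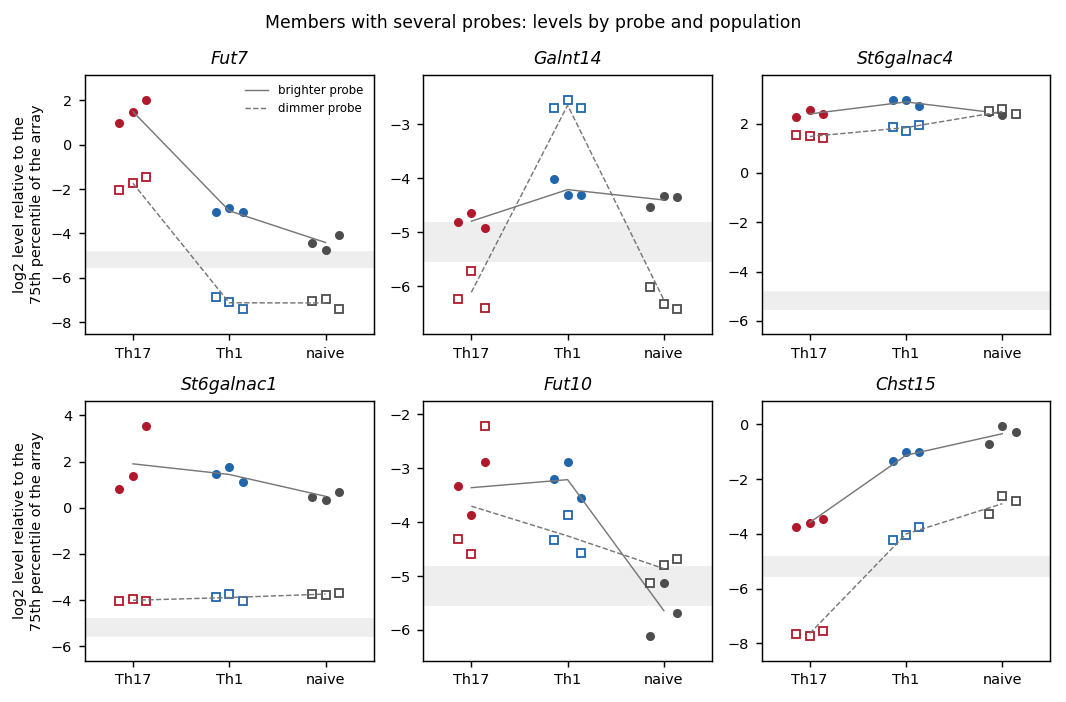
Levels on single arrays are shown for both tested probes of 6 members, by population (Th17, Th1, naive), with filled circles for the brighter probe, open squares for the dimmer one and lines through the means. The grey band spans the lowest level above background on the 9 arrays. The dimmer Galnt14 probe is above the band in Th1 cells only, and the St6galnac4 probes move in opposite directions between Th1 and naive cells.

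Some members were measured near the limit of the arrays. Of the 38 that were not tested, 27 were above background on no array and 11 on 1 or 2. They include 8 beta-1,3 transferases, 6 sulfotransferases and 5 each of the fucosyltransferases, sialyltransferases and N-glycan branching enzymes. A probe that is not well above background does not show that the gene is not transcribed. Galnt15 and Galnt18 were tested but varied widely among replicates, with SDs of 1.37 and 2.60 in naive cells.

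The genes most like the 3 members with the widest range of means were found by Pearson r over the 9 arrays among tested genes with a symbol. For Gcnt1 these were Morrbid (r = 0.997), Galm (0.997) and Ttbk1 (0.995). For Fut7 they were Magt1 (0.995), Abcb8 (0.994) and Nubp1 (0.991). For Galnt3 they were B4galt4 (0.996), Noct (0.994) and Serpinb6a (0.994). The 9 arrays fall into 3 populations, so these values largely restate the group means and carry no test.

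Genes that act beside the members were counted in 6 lists. The shares over all genes were 23.5% higher and 30.4% lower in Th1 against naive, 24.4% and 29.7% in Th17 against naive, and 8.26% and 7.51% in Th17 against Th1 cells, and nothing particular to a list is read from its counts. Of 29 tested genes for sugar nucleotide and sulfate donors, 7 rose and 13 fell in Th1 against naive cells, 9 rose and 11 fell in Th17 against naive cells, and 3 rose in Th17 against Th1 cells. Papss1, which makes the sulfate donor, changed by -2.06 in Th17 and -2.05 in Th1 against naive cells, and Slc35a3, the Golgi carrier of UDP-GlcNAc, by 1.53 and 1.17. Pgm3, which serves UDP-GlcNAc synthesis, rose by 1.14 and 1.18. Of 21 other chain-starting, trimming and core enzymes, 4 rose and 8 fell in Th1 against naive, 7 rose and 7 fell in Th17 against naive, and 2 rose and 1 fell in Th17 against Th1 cells. Ugcg, the glucosylceramide synthase, changed by -1.93 and -2.19, and Ogt, the nuclear and cytosolic GlcNAc transferase, by 2.03 and 2.75, in Th17 and Th1 against naive cells. Lfng, a Fringe enzyme that modifies Notch, changed by -2.47 and -1.27 and by -1.20 in Th17 against Th1 cells.

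Of 24 tested enzymes of heparan and chondroitin sulfate chains, 7 rose and 10 fell in Th1 against naive, 7 rose and 8 fell in Th17 against naive, and 3 rose and 2 fell in Th17 against Th1 cells. Csgalnact1, which starts chondroitin chains, averaged -5.95 ± 0.64 in Th17 cells, -1.17 ± 0.58 in Th1 cells and -6.98 ± 0.37 in naive cells (SD, n = 3 each). Its Th1 arrays lay above all others. The means of the other populations are at the lower limit of the arrays, so neither a fold nor a p is given. Among 10 glycosidases, 2 rose and 3 fell in Th1 against naive, 4 rose and 1 fell in Th17 against naive, and 3 rose and 1 fell in Th17 against Th1 cells. Neu3, a sialidase that acts on gangliosides, rose by 3.28 and 2.5 in Th17 and Th1 against naive cells, and Glb1, the lysosomal beta-galactosidase, rose by 1.94 in Th17 against Th1 cells.

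Selectins and their carriers had 6 tested genes, of which 3 rose and 3 fell in Th1 against naive and 2 rose and 3 fell in Th17 against naive cells. Selplg, the gene of PSGL-1 that carries the Fut7 product, changed by -1.96 and -2.15 in Th17 and Th1 against naive cells, while Spn, the gene of CD43, rose by 1.25 and 1.03 and Cd44 by 1.81 and 1.71. Of 12 galectins and siglecs, 4 rose and 5 fell in Th1 against naive, 4 rose and 6 fell in Th17 against naive, and 2 rose in Th17 against Th1 cells. Those 2 were Lgals3, at 5.61, and Lgals1, at 1.85. Cd22, which binds the St6gal1 product, rose by 1.18 and 1.37 in Th17 and Th1 against naive cells, although it is better known from B cells.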

How the data were processed

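RNA of 9 sorted samples was hybridised to 1-colour Agilent arrays. The deposited scanner files hold spot intensity from Feature Extraction 10.7.3.1, per the file headers, while the submitters' processing notes name 10.5. The authors' deposited value table holds log2 values that equal the log2 processed intensity up to a shift for each array, with column medians between -0.10 and 0.29, and how that shift was chosen is not given in the sources used here. The processed intensity was taken as log2 minus each array's 75th percentile. Control and outlier spots were left out and spots of a probe averaged. Probes well above background on at least 3 of 9 arrays were kept (23306 probes), and each gene was read from its brightest one. Gene symbols came from RefSeq through the probe accession for 27234 of 39429 probes. All arrays entered 1 limma fit (limma 3.58.1, R 4.3.3), tested on simulated data first. Members named with values were those with the largest changes of at least 2-fold without overlap, up to 10 per direction, and those with set roles. St6galnac1, Galnt14, Galnt15, Galnt18 and the 4 genes with printed promoters were picked with their values in view. The members and lists were chosen with earlier results of these data known. Alternatives covered background correction, scaling, filters, probe choice, slide, replicate number and left-out arrays.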

Additional observations from a re-analysis of the deposited data

Results flagged for a closer look

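St8sia4, the polysialic acid enzyme, was lower in Th17 than in Th1 cells by a log2 change of -2.04, with all 3 Th17 arrays below and all 3 Th1 arrays above the naive arrays; the difference between Th17 and Th1 cells passed the limma test. Of the 11 members that were too dim to be tested but were above background on 1 or 2 arrays, 5 were so on Th arrays alone. B3galt2 and Galnt13 were above background on 1 of 6 Th arrays each, and B3galt5, Fut2 and St6galnac3 on 2 of 6 each. B3gnt6, B4galt2, Chst9, Gcnt3 and St8sia2 were so on naive arrays alone, and Chst3 on 1 Th17 and 1 naive array. These were not tested.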

How the results depend on the processing

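Leaving out 1 array at a time gave 12 to 14 members higher and 19 to 21 lower in Th1 against naive cells, 15 to 16 higher and 20 to 23 lower in Th17 against naive cells, and 6 to 8 higher and 9 to 11 lower in Th17 against Th1 cells. With the replicate block these counts were 15 and 19, 16 and 23, and 7 and 11, which ended the calls of B3gnt5 (adjusted p = 0.0834) and Galnt2 (0.0702) in Th17 against Th1 cells, among others. Residual correlations were -0.01 to 0.18 between arrays of the same number and -0.20 to 0.07 between arrays of different numbers. Whether equal numbers pair the arrays is not known, and the main fit did not pair them. With probes above background on all 9 arrays only, which tests fewer members, 10 were higher in Th17 against naive cells. Over the other settings up to 18 members were higher in Th1 against naive cells, against 14 as reported. Normexp replaced the scanner's processed signal, using median spot signals in place of the planned mean signals. With local backgrounds as deposited it called 4 higher and 2 lower in Th1 against naive, 4 and 5 in Th17 against naive, and 0 and 1 in Th17 against Th1 cells. On Th1 replicate 2, 21 spots had a background over 2 times the median of the array, and the corrected values of that array correlated with the processed signal at r = 0.79. Backgrounds above that limit were then set to the median, an alternative chosen after seeing the data, and 115 of 128 member results kept their direction and their side of the threshold. All 128 did so in the authors' deposited table. With normexp and local backgrounds as deposited the opposite sign was found in Th1 against naive B4galt1 -0.18, Chst12 0.68, Mgat2 -0.31, Mgat4b 0.40, St6galnac2 0.83, St6galnac4 -0.10, Chst1 0.35, St8sia1 0.27, in Th17 against naive Galnt14 0.0033 and in Th17 against Th1 B3gnt5 -0.36, B3gnt9 -0.45, Chst10 -0.55, Chst12 -0.22, Fut8 -0.20, Galnt3 -0.18, Mgat2 0.38, Mgat4b -0.64, St3gal5 -0.51, St6galnac2 -0.49, St6galnac4 0.068, Galnt12 -0.10. With normexp and capped backgrounds the opposite sign was found in Th1 against naive B3gnt5 -0.14, Gcnt2 -0.17, St3gal3 -0.12 and in Th17 against Th1 Fut10 0.055. With quantile normalization the opposite sign was found in Th1 against naive B3gnt5 -0.026, St3gal3 -0.15, in Th17 against naive St6galnac4 0.067 and in Th17 against Th1 B3gnt2 -0.0007. With scaling by probes above background on all arrays the opposite sign was found in Th1 against naive St6galnac2 0.058, in Th17 against naive St6galnac4 0.074 and in Th17 against Th1 B3gnt2 -0.0014, Fut8 -0.030. With the mean of all tested probes the opposite sign was found in Th1 against naive St6galnac4 -0.089 and in Th17 against Th1 Fut10 0.20. With slide as a block, and equally within the slide shared by Th17 and Th1 arrays, the opposite sign was found in Th17 against Th1 B3gnt2 -0.13, Fut8 -0.083, Galnt6 -0.012, Mgat4a 0.26, Mgat5 0.14. The ranges over left-out arrays that include a change of sign were -0.024 to 0.35 for B3gnt5 in Th1 against naive, -0.11 to 0.23 for Gcnt2 in Th1 against naive, -0.16 to 0.28 for St3gal3 in Th1 against naive, -0.24 to 0.053 for St6galnac2 in Th1 against naive, -0.23 to 0.48 for Mgat5 in Th17 against naive, -0.082 to 0.057 for St6galnac4 in Th17 against naive, -0.078 to 0.21 for B3gnt2 in Th17 against Th1, -0.39 to 0.11 for Fut10 in Th17 against Th1, -0.074 to 0.10 for Fut8 in Th17 against Th1, -0.047 to 0.46 for Galnt3 in Th17 against Th1, -0.11 to 0.35 for Gcnt1 in Th17 against Th1, -0.11 to 0.0052 for Mgat2 in Th17 against Th1 and -0.60 to 0.12 for Mgat5 in Th17 against Th1. The causes of these changes of sign were not tested. With 3 arrays a group, and probes near background, small changes could not be resolved.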
